A study of Mus musculus with 14 samples.

Results

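The cells described here are Tlx3-positive cells of the non-dividing granule lineage in the mouse hindbrain at embryonic day E18.5. They were chosen from their own counts of unique molecular identifiers (UMIs, 1 per captured RNA molecule). A cell had at least 1 UMI of Tlx3, at least 2 of Pax6 and at most 4 of Eomes, and none of Barx2, of Mki67 or Top2a, or of Hoxb2, Hoxb3 or Hoxb4. The rule selected 5036 of the 55054 E18.5 cells that had at least 1000 genes and under 10% mitochondrial UMIs, and the whole series held 122658 such cells in 14 libraries. Without the criteria on Tlx3 and Barx2 the same rule selected 17485 cells, called the non-dividing granule gate below. Of these, 11690 had neither gene, 689 had Barx2 alone and 70 had both.

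Libraries were made by 10x Genomics 3′ single-cell RNA sequencing of TdTomato-positive, DAPI-negative cells sorted from whole hindbrains. The reporter was a Cre-dependent tdTomato at Rosa26, switched on by Cre knocked into Atoh1, so it labels cells whose ancestors used the Atoh1 promoter. Control embryos (Ctrl) were Atoh1 Cre/+; Rosa lsl-tdTomato/+ and mutants (Atoh1S193A) were Atoh1 Cre/S193A; Rosa lsl-tdTomato/+, on C57BL/6J. Since Cre replaces the coding region, both genotypes carried 1 null copy of Atoh1, and the controls were heterozygous rather than wild type. S193A changes 1 serine of the ATOH1 protein to alanine and acts as a hypomorphic (reduced-function) allele. Each E18.5 genotype had 3 libraries of 1 embryo each, and embryos with the same replicate number were littermates.

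Granule neurons arise in the rhombic lip from Atoh1-positive progenitors that also give rise to other glutamatergic neurons of the cerebellum and brainstem. Granule cell progenitors spread over the cerebellar surface as the external granular layer, divide in response to Sonic hedgehog (Shh), then leave the cell cycle and turn on Neurod1, adhesion molecules such as Cntn2 and axonal cytoskeleton genes. Tlx3 is a homeobox transcription factor found in excitatory neurons of the hindbrain and spinal cord. Isl1 is a LIM homeobox factor of motor and sensory neurons, Chrna3 encodes a subunit of the neuronal nicotinic acetylcholine receptor, and Fgf8 is a secreted growth factor that patterns the midbrain and cerebellum.

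Genes of the lineage that the rule did not use were checked against the label. Neurod1, a helix-loop-helix factor of granule cells, was found in 95.0% of the Tlx3-positive cells and in 31.3% of the 115 glia-like cells. Glia-like cells had at least 3 UMIs each of Slc1a3 and Fabp7 and none of Pax6. The pan-neuronal gene Stmn2 was found in 96.7% and 62.6%. Per library, Neurod1 was also found in 89.6% to 94.1% of dividing Tlx3-positive cells, which had a UMI of Mki67 or Top2a. It was in 89.5% to 92.6% of cells with neither gene and 74.5% to 84.8% of Barx2-positive cells. Neurod1 thus marked neither the non-dividing state nor this part. The shares in glia-like cells are given as background here and below. Each library gave 681 to 946 Tlx3-positive cells, with median depths of 12214 to 17008 UMIs. Cells with neither gene had medians of 9618 to 14805 UMIs, Barx2-positive cells 9397 to 15306.5 and glia-like cells 6060 to 12100, each below the Tlx3-positive cells in all 6 libraries. Pairs of E18.5 libraries shared 14 to 34 cell barcodes. Of other cell types, the 12 markers of Purkinje and inhibitory cells, with Skor2 at 0, summed to between 109 and 136 CPM per library (the UMIs of a gene per 1000000 UMIs of that class of cells in that library) and were led by Lhx1, the 8 glial markers to between 114 and 196, led by Pdgfra, and the 6 markers of unipolar brush cells to between 178 and 225, led by Otx2. The 10 pontine and precerebellar markers, led by Nr2f2 with 65.6% of their UMIs, summed to between 202 and 237 in the controls and between 249 and 282 in the mutants, without overlap. The part of these markers in the results was not tested. Haemoglobin RNA stood apart in 2 libraries: the summed markers of microglia, vessels, meninges and blood reached 564 in Ctrl 2 and 260 in Atoh1S193A 3, of which 97.3% over all libraries was haemoglobin, against 2.69 to 17.5 in the other 4 libraries. No haemoglobin gene is named as a result below.

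Values chosen by the rule are given once, as a description. Tlx3 stood at 306, 326 and 291 CPM in Ctrl 1, 2 and 3 and at 317, 301 and 328 in Atoh1S193A 1, 2 and 3. Of the members, 21.9% had exactly 1 Tlx3 UMI, 14.7% had 2, 12.8% had 3 and 50.6% had 4 or more. Cells just inside the Tlx3 limit, with 1 UMI, had 6.69 CPM of Isl1 and 27.7 of Chrna3 over the 1102 cells pooled, and cells just outside, with none, had 0.574 and 14.3. The 239 cells at 2 Pax6 UMIs had 61.1 CPM of Chrna3 and the 149 cells left out at 1 had 42.2. The 281 cells at 4 Eomes UMIs had 34.3 and the 215 left out at 5 had 35.7. The 1211 cells left out for a single UMI of Mki67 or Top2a had 69.5, the 205 left out for a single Hoxb UMI had 58.6 and the 52 left out for a single Barx2 UMI had 35.4.

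Isl1, Chrna3 and Fgf8, the genes by which these cells were named beside Tlx3, are described first. Tests between these E18.5 classes are not used for them, since the cells were named by these genes. Isl1 stood at 18.1, 36.9 and 13.9 in the controls and at 40.2, 41.9 and 38.9 in the mutants, against 0.148 to 1.36 in cells with neither gene. Its lowest Tlx3-positive library was above every library of the other 2 non-dividing classes. It was present in 12.2% of the Tlx3-positive cells, in 1.60% of Barx2-positive cells and in 0.411% of cells with neither. With each cell thinned to 5000 UMIs and the rule applied to the thinned counts these shares were 10.3%, 0.613% and 0.689%. Thinned counts hide single UMIs of the genes the rule bars, so 2809 of the 3919 Tlx3-positive cells they give were members at full counts. No glia-like cell of the 115 had an Isl1 UMI, which allows a share of up to 2.61% with a UMI at their lower depth and sets no limit on cells that express the gene.

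Chrna3 stood at 64.3, 62.9 and 47.8 in the controls and at 69.1, 61.4 and 54.6 in the mutants. It was detected in 43.4% of the Tlx3-positive cells, 12.3% of cells with neither and 6.53% of Barx2-positive cells (25.6%, 6.89% and 1.47% at 5000 UMIs), with 0.870% of glia-like cells as background. Its class means were 60.0 ± 7.62 (SD, n = 6 libraries), 14.4 ± 2.51 and 6.11 ± 2.65, in that order and without overlap between the Tlx3-positive class and either of the others. Fgf8 was rarer, at 14.49, 12.0 and 13.3 in the controls and 13.5, 11.1 and 8.81 in the mutants, with a UMI in 9.77% of members and in under 1% of both other classes (0.547% with neither and 0.581% of Barx2-positive cells, and none of the glia-like cells). In dividing Tlx3-positive cells of the same lineage Fgf8 reached 29.3 to 42.7 and was found in 30.8% of 5223 cells (15.6% at 5000 UMIs, against 5.41% of non-dividing Tlx3-positive cells). Fgf8 was therefore higher in every dividing sum than in every non-dividing one, while Chrna3 overlapped between them (53.4 to 69.9 in dividing cells) and so did Isl1 (18.4 to 42.9).

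**Figure D1:**
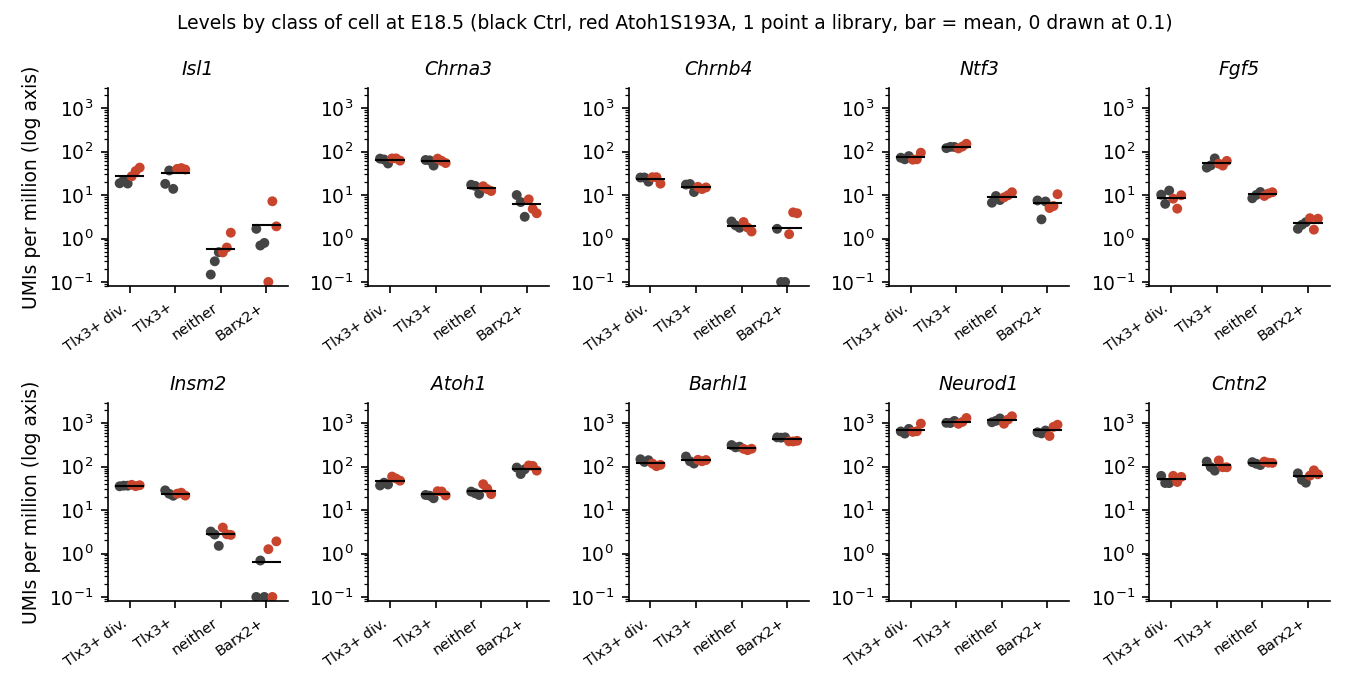
CPM (log axis) of 10 genes in 4 classes of E18.5 granule lineage cells: dividing Tlx3-positive, non-dividing Tlx3-positive, cells with neither gene, and Barx2-positive cells; each point is 1 library, black Ctrl and red Atoh1S193A, and the bar is the mean of 6. Isl1, Chrna3, Chrnb4, Ntf3 and Insm2 sit higher in both Tlx3-positive classes than in the other 2, whereas Atoh1 and Barhl1 are highest in Barx2-positive cells.

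Regulatory sequence was looked at for the genes that follow. The reference promoters (RefSeq, GRCm38.p6, 250 bases before to 50 after the start) were searched on both strands for CAGCTG, a palindromic form of the E-box that basic helix-loop-helix factors such as ATOH1 and NEUROD1 can bind. It occurred in 16.3% of 32851 promoters. The windows of Tlx3 and Chrna3 did not hold these letters. The windows of Isl1 and of 2 further genes described below, Chrnb4 and Lrrc7, did, and are shown 5′ to 3′ on the gene's strand. Isl1 stands for the contrast with cells without a Tlx3 UMI, Chrnb4 for the nicotinic receptor and Lrrc7 for the difference between genotypes. Capitals mark CAGCTG. The window of Isl1 is chr13:116309639-116309938 (minus strand), that of Chrnb4 is chr9:55048495-55048794 (minus strand) and that of Lrrc7 is chr3:158561712-158562011 (minus strand).
Isl1: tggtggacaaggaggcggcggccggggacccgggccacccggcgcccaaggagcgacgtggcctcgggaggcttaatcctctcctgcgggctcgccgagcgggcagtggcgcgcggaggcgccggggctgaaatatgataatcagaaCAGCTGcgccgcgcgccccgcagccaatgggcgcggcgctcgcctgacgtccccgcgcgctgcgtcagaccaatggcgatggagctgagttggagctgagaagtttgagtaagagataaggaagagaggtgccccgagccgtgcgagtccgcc
Chrnb4: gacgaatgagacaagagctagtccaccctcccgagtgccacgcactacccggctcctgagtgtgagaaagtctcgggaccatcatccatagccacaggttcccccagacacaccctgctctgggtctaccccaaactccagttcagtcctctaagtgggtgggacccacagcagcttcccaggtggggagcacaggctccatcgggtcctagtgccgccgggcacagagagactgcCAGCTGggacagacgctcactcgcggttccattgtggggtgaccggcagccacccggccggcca
Lrrc7: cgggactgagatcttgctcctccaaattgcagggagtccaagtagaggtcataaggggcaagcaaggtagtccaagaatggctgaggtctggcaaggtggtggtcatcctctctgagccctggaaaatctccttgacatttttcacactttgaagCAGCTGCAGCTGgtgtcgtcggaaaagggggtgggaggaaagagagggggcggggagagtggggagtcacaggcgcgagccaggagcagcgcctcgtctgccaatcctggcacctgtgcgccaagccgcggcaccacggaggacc
The first base of the motif lay 103 bases before the start of Isl1 and 14 before that of Chrnb4, and Lrrc7 held 2 adjacent copies at 95 and 89 bases. Of the 10 genes with the largest excess in Tlx3-positive cells over cells with neither, 9 had a promoter in the table and 4 of these held the motif (Chrnb4, Isl1, Kcna2 and Rph3al), beside 18.3% of 27025 genes with at least 1 such promoter. Of the 10 with the largest excess over Barx2-positive cells, 8 had a promoter and 2 held the motif (25%, Bhlha9 and Isl1). Isl1, by which the cells were named, is in both counts. These matches describe the letters only, and binding was not measured.

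The members were not uniform. To compare them at 1 depth, the 5001 of the 5036 members with at least 5000 UMIs were thinned to that number, and these were divided by a UMI of 1 gene. The divisions use the same cells throughout and are descriptions. Cells with an Isl1 UMI (406) differed from those without (4595) in the same direction in 6 of 6 libraries for 673 of 9566 genes that were higher (7.04%) and 1089 that were lower (11.4%). The genes named here were chosen among them after their values were seen. In CPM, Lrrc7, a scaffold protein of synapses, was at 146 ± 27.9 (SD, n = 6) with Isl1 and 33.8 ± 6.76 without, Ngfr, the p75 neurotrophin receptor, at 107 ± 23.0 and 36.1 ± 6.73, and Pmaip1, a BH3-only protein of the BCL2 family, at 131 ± 26.4 and 23.6 ± 2.82. Chrna3 was also higher with Isl1 (143 ± 24.0 and 56.1 ± 9.25), and so were the cyclin gene Ccnd2 (766 ± 128 and 409 ± 90.8) and the granule lineage factor Barhl1 (221 ± 40.8 and 137 ± 19.4).

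Lower with Isl1 in all 6 libraries were En1, a homeobox factor of the mid-hindbrain (54.0 ± 31.3 and 150 ± 30.5), Cbln1, a secreted organizer of granule cell synapses (129 ± 12.8 and 364 ± 23.1), Cdkn1a, an inhibitor of cyclin-dependent kinases (55.9 ± 20.5 and 147 ± 23.2), and Fgf5, a growth factor (8.99 ± 3.77 and 57.0 ± 10.4). The neuronal cytoskeleton genes Gap43, Mapt and Stmn2 were lower too, by 0.95, 0.98 and 0.86 on the log2 scale with 1 CPM added. Hes1 was lower in all 6 thinned libraries, but at full counts it was higher with Isl1 in 1 of the 6. Neurod1 (0.01 ± 0.05) and Ntf3 (0.17 ± 0.34) showed no common direction. Isl1 and Fgf5 were seldom found together, with an Fgf5 UMI in 3.69% of cells with Isl1 and in 18.52% of those without.

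**Figure D2:**
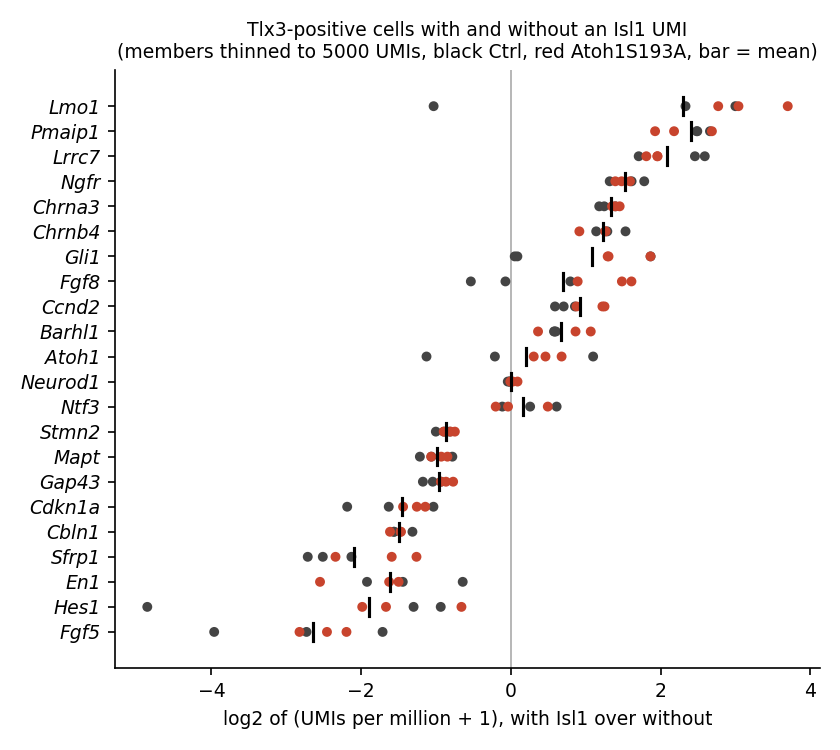
Difference in log2(CPM + 1) between Tlx3-positive cells with and without an Isl1 UMI for 22 genes, in members thinned to 5000 UMIs; points are the 6 libraries (black Ctrl, red Atoh1S193A) and bars their means. Pmaip1, Lrrc7, Ngfr, Chrna3, Ccnd2 and Barhl1 lie to the right of 0 in all libraries, and Fgf5, Hes1, En1, Cbln1, Cdkn1a and the cytoskeleton genes to the left.

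Divided by Fgf8 instead, 251 members had a UMI. The replicative helicase subunit Mcm6 was at 208 ± 44.7 with Fgf8 and 56.7 ± 9.88 without (SD, n = 6 libraries), its partner Mcm2 at 76.2 ± 20.8 and 19.0 ± 5.49, and the Shh receptor and target Ptch1 at 148 ± 35.4 and 72.1 ± 2.91. Mapt, which encodes tau, was at 127 ± 117 and 895 ± 90.5, and Nefm, a neurofilament, at 124 ± 83.2 and 674 ± 87.1. Isl1 (59.9 ± 28.1 and 32.2 ± 11.4) and Chrna3 (124 ± 16.1 and 59.8 ± 10.2) were higher with Fgf8. All of these had 1 direction in 6 of 6 libraries, as was so for 920 of all 9566 genes on the higher side (9.62%) and 1908 on the lower (19.9%).

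The 464 cells with an Atoh1 UMI had Mcm6 at 141 ± 29.3 and 56.6 ± 8.81 without, and Cxcr4, the chemokine receptor of external granular layer cells, at 57.6 ± 3.86 and 21.9 ± 5.29. Mapt was at 426 ± 103 and 900.5 ± 94.1. Chrna3, at 82.9 ± 21.1 and 61.0 ± 9.32, was higher with Atoh1 in all 6 libraries, whereas Isl1 was higher in 1 and lower in 5. The 866 cells with an Fgf5 UMI had Mapt at 1629 ± 125 and 694 ± 72.5 without, Cbln1 at 649 ± 49.0 and 282 ± 21.1, and the neurotrophin gene Ntf3 at 189 ± 24.6 and 113 ± 17.3. In the same cells Ccnd2 was at 44.0 ± 24.6 and 522 ± 99.5, Chrna3 at 14.9 ± 5.18 and 73.0 ± 9.95, and Fgf8 at 2.07 ± 1.99 and 15.5 ± 2.66. Not all neuronal genes were higher with Fgf5: the adhesion gene Cntn2 (46.9 ± 14.2 and 127 ± 27.9) and the netrin receptor gene Dcc (19.7 ± 4.06 and 92.3 ± 5.36) were lower in 6 of 6 libraries, and Gap43 was higher in 3 and lower in 3. Of all 9566 genes, 8.22% were higher and 16.1% lower with Atoh1 in every library, and 21.3% were higher and 20.3% lower with Fgf5.

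The question of the next comparison was which genes set the Tlx3-positive cells apart from Barx2-positive cells of the same gate, whose counts came from 74 to 184 cells per library. UMIs were summed per library and class and tested with edgeR's quasi-likelihood method, with the library as a block. A gene was called when its Benjamini-Hochberg FDR was under 0.05 and its log2 change past 0.25. Of 9686 genes tested, 2521 (26.0%) were higher and 2497 (25.8%) lower in the Tlx3-positive cells, and sizes are therefore given beside the calls. A gene was tested if found in at least 10% of cells of 1 group. A gene rare in 1 class could thus pass only through the class where it is high, and the changes of such genes are descriptions here and in the comparisons that follow. The median of all genes was −0.01 on the log2 scale. The Barx2-positive cells were shallower, and in cells thinned to 5000 UMIs 3490 of 6900 genes were called, of which 3130 were shared.

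The largest rises outside the named markers were in Insm2, a zinc finger factor of neuroendocrine and neuronal progenitors (log2 change 5.00), Pmaip1 (4.45), Fgf5 (4.44), Bhlha9, a helix-loop-helix factor (4.40), and Ntf3 (4.32). Each of these 5 was found in under 10% of the Barx2-positive cells (0.871% for Insm2 to 5.66% for Ntf3) and in 14.7% to 59.0% of the Tlx3-positive cells. Ntf3 stood at 121, 129 and 128 CPM in the controls and 118, 131 and 152 in the mutants, and Barx2-positive cells had 2.76 to 10.5. Fgf5 stood at 42.9, 48.2 and 70.0 and at 52.9, 47.7 and 61.3, against 1.60 to 2.94. The groups did not overlap for either gene, and the higher group did not overlap in 18.2% of all genes tested.

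The largest falls were in Nts, the neuropeptide neurotensin (−7.49), Rassf9 (−6.83), Tph1, an enzyme of serotonin synthesis (−6.71), Cfap77 (−5.49) and Msx1, a homeobox factor of the roof plate and rhombic lip (−5.46), all in under 10% of the Tlx3-positive cells. Nts was at 4.95 to 19.9 CPM in Tlx3-positive cells and 989 to 2561 in Barx2-positive cells. Otx2, which marks the posterior rhombic lip and unipolar brush cells, was at 113 to 147 against 633 to 760 (−2.49, SE 0.07), and the listed unipolar brush cell markers summed to between 675 and 856 in Barx2-positive cells, of which Otx2 made up most. The part of that lineage in the Barx2-positive cells was not tested.

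Genes of neuronal differentiation stood higher in the Tlx3-positive cells. Of 26 listed, 24 could be tested, 17 rose and 6 fell, with a median log2 change of 1.14. Syt1, the calcium sensor of synaptic vesicles, stood at 517, 482 and 632 CPM in the controls and 535, 538 and 702 in the mutants, against 70.4 to 199 (2.06, SE 0.25). Gap43, a growth cone protein, rose by 1.87 and Mapt by 1.47, and the helix-loop-helix factor Nhlh1 by 1.27. Unc5b and Dcc, netrin receptors, were among the 6 that fell (Dcc −0.66). Cell cycle genes other than those of the rule went the other way, with 15 of 19 tested lower, 2 higher and a median of −1.16. Mcm2 was at 16.3 to 29.1 against 47.6 to 91.8 (−1.81, SE 0.09), and the 2 that rose, Cdkn1a (2.49) and Cdkn2d (1.01), are inhibitors of the cycle, as is Cdkn1b, which fell. Ccnd2 fell (−2.75) while Ccnd1 rose (1.09).

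The FGF list had 8 of 11 tested genes higher and 3 lower, with a median of 1.23. Those that rose included the transcription factors Etv4 (3.60), Etv5 (2.88) and Etv1 (1.87) and the inhibitors Spry4 (2.71), Dusp6 (1.23) and Spred1 (1.34), all known targets or modulators of FGF signalling. Etv5 stood at 45.6, 48.1 and 45.1 CPM in the controls and 40.8, 40.9 and 43.1 in the mutants, against 3.16 to 10.5. The 3 that fell were Spry2 (−2.52) and the receptors Fgfr2 (−2.47) and Fgfr1 (−0.36). In the Notch list 6 of 10 fell, 3 rose and the median was −0.83. Notch1 was at 5.89 to 8.15 against 45.1 to 70.5 (−2.98), and its target Hes5 fell by 2.77 on the log2 scale, whereas Dll3, a ligand-like modulator, rose (0.78). Fgfr2 and Notch1 were found in under 10% of the Tlx3-positive cells, so both passed the filter through the Barx2-positive cells. Etv4, Etv5 and Spry4, with the largest rises given here, may have passed it through the Tlx3-positive cells alone. Their changes are descriptions too. The counts of both lists include such genes and are descriptions.

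Among granule lineage factors the direction was mixed, with 8 of 18 higher, 6 lower and a median of 0.06. En1 was at 97.8 to 165 CPM against 14.2 to 31.7 (2.53, SE 0.09) and Neurod1 rose by 0.60, while Atoh1 was at 18.7 to 27.2 against 67.6 to 107 (−2.04) and Barhl1 fell by 1.69 on the log2 scale. Of 17 genes of the granule progenitor and Shh list, 6 rose, among them Sfrp1 (1.88) and Ptch1 (0.76), and 8 fell. Among those that fell, Cdon, Sox2 and Gli3 passed the filter through the Barx2-positive cells, so this count is a description. Of 15 genes in the nicotinic and cholinergic list 3, all receptor subunits, could be tested. Chrna3 is a gene by which the cells were named and is not counted here. The others were Chrnb4, whose subunit pairs with that of Chrna3 in autonomic receptors and which lies next to it on chromosome 9 (3.14), and Chrnb2 (0.58, SE 0.19, FDR 0.0095). Chrnb4 stood at 17.5, 18.01 and 11.8 and at 15.5, 13.7 and 15.0, against 0 to 4.00. It was found in 15.4% of Tlx3-positive and 2.03% of Barx2-positive cells, so it passed the filter on low values through the class where it is high, and its call is given as a description.

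**Figure D3:**
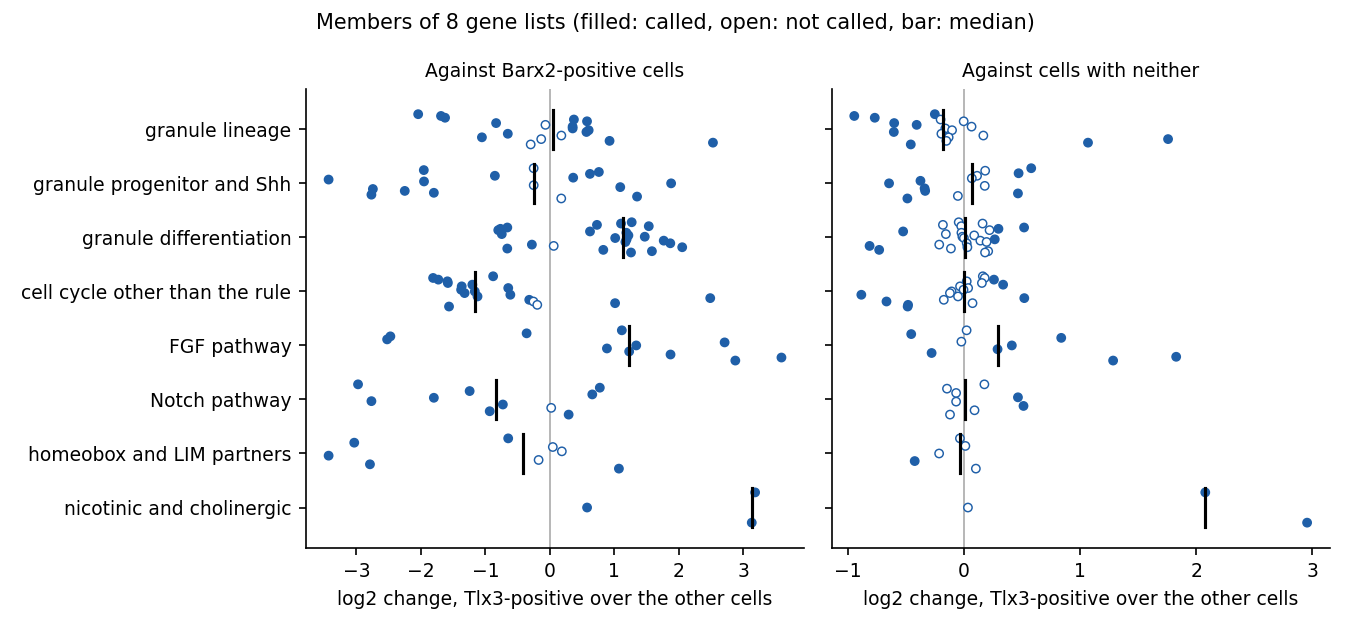
Log2 changes of the members of 8 gene lists in Tlx3-positive cells over Barx2-positive cells (left) and over cells with neither gene (right). Filled points passed the test, open points did not, and bars are list medians. Chrna3, by which the cells were named, is drawn filled in the nicotinic list as a description. On the left panel 17 of 24 differentiation genes were called to the right of 0 and 6 to the left (median 1.14), and 2 of 19 cell cycle genes to the right and 15 to the left (median −1.16); both medians are near 0 on the right panel.

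Against the 11690 cells with neither gene the differences were fewer. Of 9438 genes tested, 648 (6.87%) were higher in the Tlx3-positive cells and 532 (5.64%) lower, with a median over all genes of 0.00. The rule sees captured molecules only, and cells that express Tlx3 without a captured UMI cannot be told apart from cells that lack it. The largest rises after Isl1 were in Pmaip1 (log2 change 4.01), Ntf3 (3.85), Insm2 (3.11), Chrnb4 (2.96) and Rph3al, a binding partner of secretory Rab proteins (2.68), each in 2.01% to 7.08% of cells with neither. Ntf3 had 6.66 to 11.6 CPM in cells with neither. Kcna2, a voltage-gated potassium channel, was at 21.4 to 26.9 against 3.95 to 6.28, without overlap, as were 5.39% of all genes tested on the higher side (2.26), and Fgf5 was higher by 2.38 on the log2 scale.

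The largest fall was in Lsamp. Lsamp encodes a neuronal adhesion molecule and was at 56.2, 36.8 and 41.8 CPM in the controls and 70.8, 41.5 and 53.5 in the mutants, against 273 to 356 (−2.61, SE 0.09, FDR 4.4e-06). Further falls were in Tmem132b (−2.47), Ptprt, a receptor phosphatase (−2.25), Mab21l2 (−1.99), the chemokine Cxcl14 (−1.87) and Efnb2, an ephrin ligand (−1.80). Efnb2 was at 8.09 to 13.3 against 33.6 to 38.8, without overlap, as were 5.13% of all genes tested on the lower side.

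By list, of 24 differentiation genes 3 rose, 3 fell and 18 were not called, with a median of 0.01. Mapt (−0.02, SE 0.04), Gap43 (0.02, SE 0.03) and Syt1 (0.03, SE 0.04) were near 0, while Snap25 (−0.82), a synaptic fusion protein, and Slc17a7 (−0.73), a vesicular glutamate transporter, were lower and Dcc higher (0.52). Of 19 cell cycle genes 3 rose and 4 fell, with a median of −0.01. The FGF list had 5 of 9 genes higher and 2 lower, with a median of 0.29: Etv4 (1.83), Etv5 (1.28), Spry4 (0.84), Spred2 (0.41) and Dusp6 (0.29) rose, and Fgfr1 (−0.46) and Etv1 (−0.28) fell. In the granule lineage list 7 of 18 fell, among them Barhl1 (−0.95, SE 0.07), Barhl2 (−0.77) and Neurod2 (−0.61), and Lhx9 (1.76) and En1 (1.07) rose. Otx2 was lower (−0.62). Of 9 early response and stress genes 5 fell (Egr1, Ier2, Jun, Junb and Ddit3) and none rose, with a median of −0.28, beside 5.64% of all genes on the lower side. Of 3 glial genes Fabp7 and Slc1a3 fell and Pdgfra rose. The part of these genes in the contrast was not tested. Chrnb2, the common neuronal nicotinic subunit, did not pass the test (0.03, SE 0.05, FDR 0.67).

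Embryos of E14.5, which the choice of cells did not use, gave 360 cells by the same rule. Pair 2 of the 3 littermate pairs gave 6 and 0 of them, so the contrast with Barx2-positive cells was made in the 4 libraries of pairs 1 and 3, with 65 and 124 cells in the controls and 88 and 77 in the mutants. The pontine nuclei of postnatal day 5 gave 3 cells and were not analysed further. Of 10171 genes, 812 (7.98%) were higher and 690 (6.78%) lower. Fgf8 was at 22.7 and 40.7 CPM in the controls and 26.4 and 15.2 in the mutants, with no UMI in any Barx2-positive sum, and Etv4 was at 11.8, 7.96, 11.8 and 11.8 against 0 in all 4, so both passed the filter through the Tlx3-positive cells. Ntf3 was at 67.4, 99.1, 92.1 and 67.0 against 0 to 3.80 (log2 change 4.83), Etv5 higher by 5.12 and Chrna3 by 2.93 on the log2 scale. Isl1 had too few UMIs to be tested at that age. Of 23 differentiation genes 15 rose and 1 fell (median 0.85), of 13 FGF genes 7 rose and 4 fell (median 0.97), and of 23 cell cycle genes 1 rose, 8 fell and 14 were not called (median −0.27), beside 0.00 for all genes. The 7 FGF genes include Fgf8, by which the cells were named, and Etv4, so that count is a description. Of 9 early response and stress genes 5 rose and none fell (median 0.64), and their part in these changes was not tested. Ntf3 did not overlap between the classes, as was so for 8.30% of all genes on the higher and 6.75% on the lower side. With Fgf8 at 0 in every Barx2-positive sum and Ntf3 at 0 to 3.80, the values of both are descriptions. Etv5 and Chrna3 may have passed the filter through the Tlx3-positive cells too. Chrna3 is also a gene by which the cells were named, so both changes are descriptions. Both ages were compared with their own Barx2-positive cells, and no test between the ages was made. At E14.5 Ccnd1 rose (3.90) and Cxcl14 (−6.51), Otx2 (−2.66) and Hes1 (−3.13) fell.

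The share of the gate that was Tlx3-positive was compared between genotypes. It was 32.1%, 28.5% and 30.6% in the controls (30.4% ± 1.80, SD, n = 3) and 28.5%, 26.4% and 28.3% in the mutants (27.7% ± 1.17). The mutant share was lower in every littermate pair, by 2.64 percentage points on average. It did not pass the test (limma on logit shares, FDR 0.63 over the 4 classes of the gate), and the exact two-sided permutation test gave p = 0.2, where 0.1 is the smallest value 3 against 3 can give. Blocking on the littermate pair gave a limma FDR of 0.14. In cells thinned to 5000 UMIs the shares were 19.6% ± 1.26 and 19.7% ± 1.01, so the sign of the difference turned (0.143 points), and it turned too with all kept cells as the denominator (8.93% and 9.56%). With at least 2 Tlx3 UMIs the mutant share stayed lower, at 24.2% in the controls and 21.3% in the mutants. There the limma FDR was 0.29 and the exact permutation test gave p = 0.1. Fewer cells of a kind and less Tlx3 RNA per cell cannot be told apart in such shares, and at full counts depth enters too. Median UMIs of all kept cells were 16772, 12343.5 and 15035 in the controls and 14400, 12866 and 10974 in the mutants. The shares with at least 2 Tlx3 UMIs were not thinned.

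**Figure D4:**
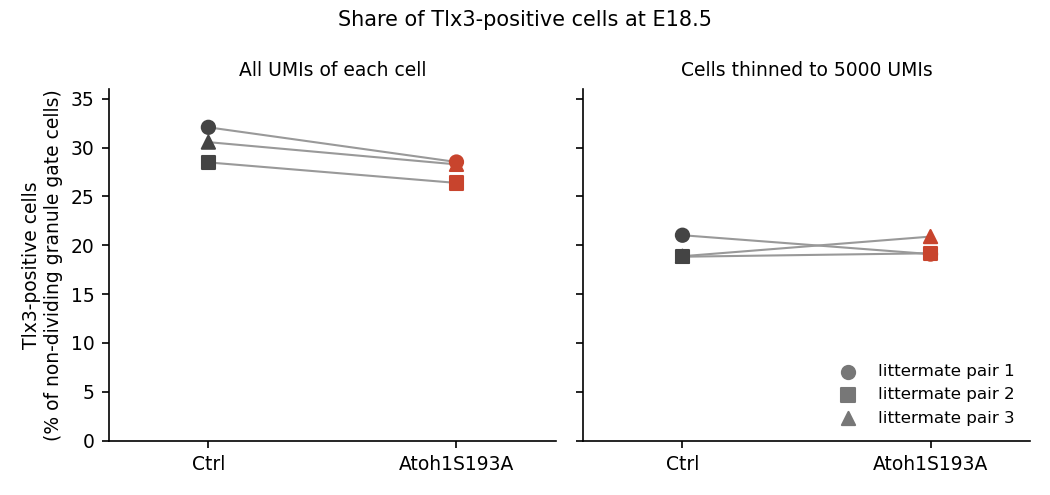
Tlx3-positive cells as a percentage of non-dividing granule gate cells in each E18.5 library, with all UMIs (left) and after thinning to 5000 UMIs per cell (right); lines join littermates. The mutant lies below its littermate in all 3 pairs on the left, by 2.64 points on average, and the means are 19.6% and 19.7% on the right.

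Few genes differed between genotypes within the Tlx3-positive cells in the fit without a littermate block, and 220 did with it, as given below. Of 9567 genes tested, 3 (0.0314%) were called with edgeR, 1 higher (0.0105%) and 2 lower (0.0209%), and 542 had an unadjusted p under 0.05. Loxl1, a lysyl oxidase that crosslinks elastin and collagen, stood at 17.5, 17.0 and 19.1 CPM in the controls and 5.87, 6.36 and 5.20 in the mutants (log2 change −1.65, SE 0.13, FDR 0.00067). Actn1, an actin crosslinking protein, stood at 49.5, 47.5 and 52.3 and at 31.0, 30.1 and 28.03 (−0.78, SE 0.08, FDR 0.0057). Lrrc7 went the other way, at 35.4, 34.3 and 33.3 in the controls and 51.2, 54.6 and 54.0 in the mutants (0.60, SE 0.07, FDR 0.016). None of the 3 overlapped between genotypes, as was the case for 5.31% of genes on the higher and 5.71% on the lower side. Leaving out Atoh1S193A 2 took the call from Actn1 (FDR 0.079) and Lrrc7 (0.14), leaving out Ctrl 2 (0.14) or Atoh1S193A 3 (0.094) took it from Lrrc7, and thinning took it from both (0.25 and 0.13). Loxl1 was called in all 6 fits that left out 1 library, and had too few UMIs to be tested in thinned cells.

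Littermates deviated together, and with the pair as a block 220 genes (2.30%) were called, 73 (0.763%) higher and 147 (1.54%) lower in the mutants. Loxl1, Actn1 and Lrrc7 were among them. Hes1, an effector of Notch, stood at 18.8, 32.5 and 26.4 CPM in the controls and 12.0, 15.4 and 12.9 in the mutants (−0.97, SE 0.10, FDR 1.5e-08, and FDR 0.44 without the block). Further falls with the block were in Col18a1, a basement membrane collagen (−1.19), Tle6 (−1.02), Mab21l2 (−0.97) and Tenm4, a cell adhesion protein (−0.81). Hrk, a BH3-only protein, led the rises at 6.78, 7.07 and 8.80 against 12.8, 17.7 and 13.8 (0.93, SE 0.13, FDR 1.4e-05, and 0.13 without the block), followed by Syndig1, a regulator of AMPA receptors (0.77), and Cabp1, a calcium sensor (0.67). Hes1 and Hrk did not overlap between genotypes. Without the block DESeq2 called both (FDR 0.00054 and 0.0024), and edgeR called Hes1 on leaving out Ctrl 1 (0.014) and Hrk with no filter on low genes (1.48e-05). With the block and DESeq2 in place of edgeR, Tle6 (FDR 0.10), Syndig1 (0.37) and Cabp1 (0.19) were not called.

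By list, the 3 genes called without the block belonged to none, so each list had a count of 0, and the median changes lay between −0.21 for the 14 progenitor and Shh genes and 0.27 for the 3 pontine and precerebellar genes, beside 0.00 for all genes. The list calls with the block that follow are those of edgeR. DESeq2 with the block called 32 genes in all, 22 of them lower, in place of 220. With the block 4 of the 14 progenitor and Shh genes fell (Hes1, Ccnd2, Ccnd1 and Id2) and none rose. Ccnd2 stood at 468, 586 and 413 in the controls and at 382, 412 and 298 in the mutants (−0.45, SE 0.06, FDR 4.6e-07), and Ccnd1 at 75.8, 63.1 and 67.3 and at 59.3, 57.6 and 49.8 (−0.34, SE 0.07, FDR 0.0015). Of 18 lineage genes En1 (−0.48) and En2 (−0.28) fell with the block, of 19 cell cycle genes Mcm2 (−0.47) and Mcm6 (−0.27), of 11 FGF genes Etv1 (−0.34), of 9 Notch genes Hes1 and Mfng (−0.46), and of 24 differentiation genes Cxcr4 (−0.33). Pbx3 (0.48) and Lmo2 (0.36) rose among 5 homeobox and LIM genes, and Ephb1 (0.32) and Nr2f2 (0.27) among the 3 pontine and precerebellar genes, a list whose summed level, given above, was higher in every mutant. None of the 3 genes tested of the nicotinic and cholinergic list was called, with Chrna3 at 0.06 (SE 0.06) and Chrnb4 at −0.11 (SE 0.11). Atoh1 was at 22.3, 21.5 and 18.7 against 27.2, 26.8 and 21.7 and did not pass the test (0.25, FDR 0.85, and 0.14 with the block). The study named 12 genes at E14.5 in cells of the developing pontine nuclei, with tests across cells. It reported Hrk higher in mutant intermediate progenitors and migrating neurons, and Hes1 higher in mutant progenitors. The cells here are of another lineage and age and were summed per library, so this is no repeat of that test. Of the 12 genes, 10 were tested here and none was called without the block, while Hrk rose and Hes1 and Rab15 (−0.40) fell with it.

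Isl1 was compared between genotypes as a share of cells too. It was found in 7.64%, 13.4% and 6.99% of Tlx3-positive cells in the controls and in 14.6%, 14.8% and 14.48% in the mutants. Each mutant lay above its littermate, but Ctrl 2 was close to the mutants and the gene was not called (log2 change 0.79, SE 0.38, FDR 0.93, and 0.84, SE 0.36, FDR 0.56 with the block). By CPM, 34.1% of all 9567 genes tested had the same direction in every littermate pair. With the rule applied to counts thinned to 5000 UMIs the shares of cells with Isl1 were 5.82%, 10.4% and 5.72% against 12.5%, 13.6% and 12.4%. Ctrl 2 also had the most haemoglobin RNA, and its part in the value was not tested.

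The genotype differences were then read in cells with and without an Isl1 UMI, as a description. Loxl1 did not overlap between genotypes in cells without it (18.49 ± 1.00 CPM in controls and 4.91 ± 0.723 in mutants, SD, n = 3) and overlapped in cells with it (11.5 ± 2.81 and 11.0 ± 0.607). Actn1 differed in both (49.0 ± 2.74 and 27.3 ± 1.69 without, 56.4 ± 4.08 and 43.7 ± 4.79 with), and so did Lrrc7 (27.2 ± 0.805 and 40.2 ± 2.20 without, 104 ± 18.7 and 128 ± 2.66 with), each without overlap. Hrk was higher in mutants in both, at 7.98 ± 1.23 and 14.1 ± 2.28 without Isl1 and 3.85 ± 2.03 and 18.55 ± 4.24 with it. Of 13 genes read, 7 are given here. For comparison, 7.37% of all 9566 genes lay higher and 3.23% lower in mutants without overlap with Isl1, and 8.77% and 4.54% without it, and Loxl1, Actn1, Lrrc7 and Hrk were already chosen for their difference in all members. The means of 3 of the 13 turned. Hes1 was lower in mutants without Isl1 (27.99 ± 7.70 and 13.9 ± 2.03) and had the higher mean with it, with overlap (6.54 ± 7.33 and 10.7 ± 4.24), and so it was with Ccnd1 (69.6 ± 6.73 and 53.0 ± 4.48 without, 58.3 ± 12.8 and 70.3 ± 9.32 with). Rab15 overlapped in both (23.9 ± 6.77 and 18.4 ± 4.12 without, 10.5 ± 3.97 and 11.0 ± 2.43 with). Cells with Isl1 numbered 52, 119 and 57 in the controls and 119, 131 and 137 in the mutants. Low CPM values there, such as those of Hes1 (0 in Ctrl 3), Hrk and Loxl1, therefore rest on few UMIs. The difference between these subsets was not tested. In cells with neither Tlx3 nor Barx2, Loxl1 was also lower in every mutant, at 10.6, 8.11 and 8.70 against 5.53, 4.23 and 2.50.

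**Figure D5:**
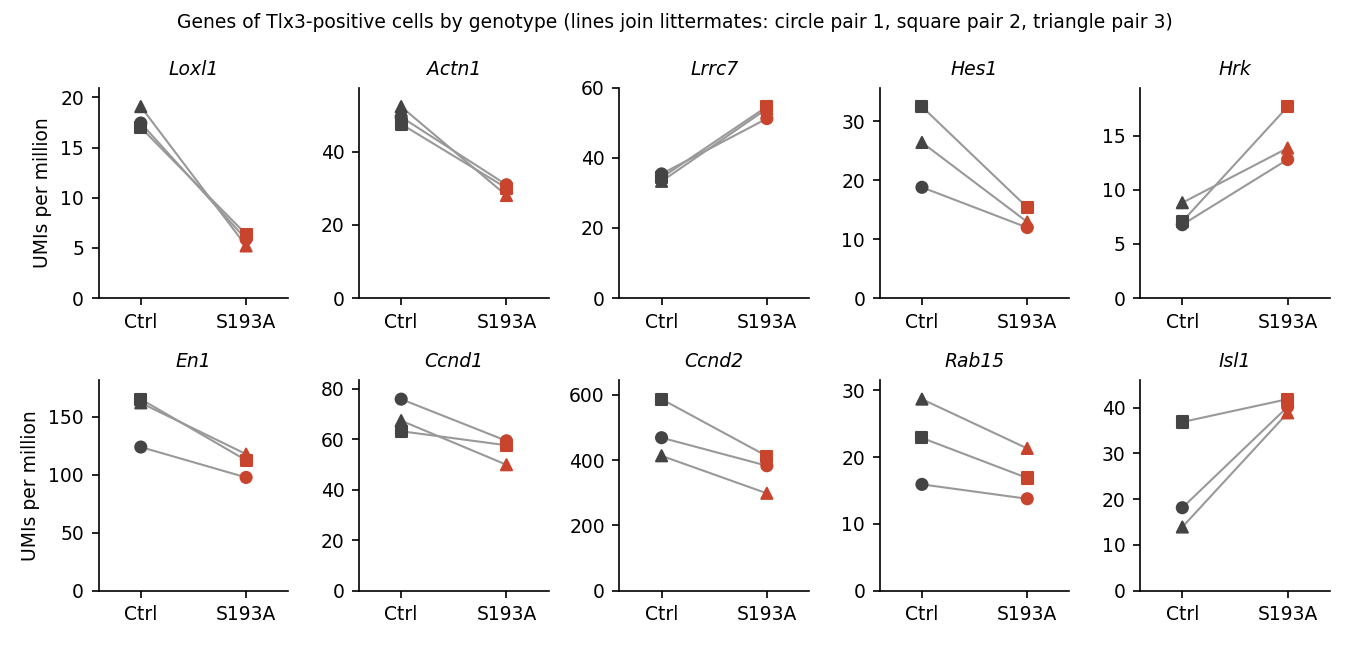
CPM of 10 genes in the Tlx3-positive cells of each E18.5 library; lines join littermates (circle pair 1, square pair 2, triangle pair 3). Loxl1 and Actn1 were lower and Lrrc7 higher in mutants without a block; Hes1, Hrk, En1, Ccnd1, Ccnd2 and Rab15 were called by edgeR with the littermate block and not without it, and Isl1 in neither fit.

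Whether the change with genotype differed between Tlx3-positive and Barx2-positive cells was tested as an interaction. Of 9686 genes 10 (0.103%) were called, 4 (0.0413%) with a higher and 6 (0.0619%) with a lower change in the Tlx3-positive cells. Rab15, a small GTPase of endosomes, stood at 27.6, 25.5 and 26.1 CPM in the Barx2-positive cells of controls and 3.77, 3.20 and 6.67 in those of mutants. In Tlx3-positive cells it stood at 15.9, 22.9 and 28.7 and at 13.8, 16.9 and 21.3. The difference between the 2 log2 changes was 2.19 (SE 0.35, FDR 0.0043). D430041D05Rik, a gene model named here after its values were seen, also changed less in Tlx3-positive cells, with a change of −1.62 in Barx2-positive and −0.11 in Tlx3-positive cells (difference 1.53, SE 0.19, FDR 0.00011). Loxl1, Actn1 and Lrrc7 were not called in this test.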

How the data were processed

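Single-cell 3′ libraries were aligned by the authors with Cell Ranger 5.0.1 to mm10 with an added reporter sequence (the file headers of E14.5 Ctrl 1 and 2 name version 3.1.0, and Ctrl 1 is in the E14.5 contrast). The deposited values are raw UMI counts per gene and cell, not normalized in these files. Members, gene lists and tests were chosen with earlier results of these data known. UMIs were summed per library and class and tested with edgeR 4.0.16 (quasi-likelihood, TMM) after genes detected in under 10% of cells in every group had been dropped (so a gene could pass through the class where it is high), and rule genes were not tested. Calls needed an FDR under 0.05 and a log2 change past 0.25. Shares were tested with limma 3.58.1 on logits and by exact permutation. Named genes were those of the rule, called or most abundant members of the lists, and the 10 largest called rises and falls per comparison whose groups did not overlap, leaving out sex-linked and mitochondrial genes and gene models; other genes, among them those described in subsets of the members, were chosen after their values were seen. Alternatives were DESeq2 1.42.0, its size factors, no filter, a 5% mitochondrial limit, removal of the 7.5% of cells with the highest Scrublet doublet scores, 2 or more UMIs, thinning and leaving out each library. Otherwise doublets were not removed. Replicate numbers were read as littermates from the study's methods. Deviations from the group means correlated at 0.536, 0.490 and 0.698 within pairs, against at most 0.135 between libraries of other numbers. Litter, sex, which each pair shared, and joint handling cannot be told apart in these values. E18.5 libraries held 108239001 to 183911797 UMIs. Intervals and limits on counts of 0 cover counting error only. Scripts were tested on simulated data.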

Additional observations from a re-analysis of the deposited data

Results flagged for a closer look

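The change with genotype differed between Tlx3-positive and Barx2-positive cells for 8 named genes by edgeR's test of the difference itself, given here as the log2 change in Tlx3-positive minus that in Barx2-positive cells. The difference was positive for Rab15 (2.19, FDR 0.0043, with changes of −0.42 and −2.64) and Lmnb1, a nuclear lamin (0.50, FDR 0.023, with 0.05 and −0.43). It was negative for Unc5b, a netrin receptor (−1.09, FDR 0.023, with 0.02 and 1.12), and for Pax3, a paired-box factor (−0.63, FDR 0.020, with −0.69 and −0.07). In Tenm4 (−1.53, FDR 0.023, with −0.81 and 0.76), Casz1, a zinc finger factor (−1.48, FDR 0.032, with −1.23 and 0.27), Mfap2 (−0.85, FDR 0.032, with −0.47 and 0.40) and Sp5 (−0.82, FDR 0.023, with −0.54 and 0.31) the signs of the 2 changes differed, but neither change was called on its own without the littermate block. With the block the change in Tlx3-positive cells was called for these 4 and that in Barx2-positive cells was not. None of the 8 was called with a 5% mitochondrial limit (Rab15 1.97, FDR 0.28), without Ctrl 2 (Rab15 FDR 0.058) or in thinned cells, where Rab15 could not be tested. With DESeq2 the call held for 1 of the 8 (Rab15, FDR 0.024), and on leaving out another library for 3 to 5.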

How the results depend on the processing

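The count of genotype genes, 3 without a block, depended most on the setting. It was 220 with the littermate pair as a block, 32 with the block and DESeq2, 221 with the block and DESeq2's size factors, 98 with the block and a 5% mitochondrial limit, 205 with the block and doublet-scored cells removed, and 39 with the block in thinned cells. Unpaired, it was 10 with DESeq2's size factors, 17 with DESeq2, 60 with no filter, 5 with the mitochondrial limit, 8 with at least 2 Tlx3 UMIs, and 2 in thinned cells with 0 shared. Leaving out 1 library gave 1 (without Atoh1S193A 2) to 9 (without Ctrl 1). The fits that combine the block with another choice, and the thinned genotype fit, were chosen after seeing the data. The interaction gave 2 genes with DESeq2, 44 with no filter, 39 in thinned cells (1 shared), 1 with the mitochondrial limit and 1 (without Ctrl 2) to 15 on leaving out a library. With no filter 2677 genes were called against cells with neither. At E14.5 DESeq2 called 781 and thinning left 530. Leaving out a library gave 4696 to 4996 genes against Barx2-positive cells, 1150 to 1213 against cells with neither and 1083 to 1339 at E14.5. The share difference, −2.64 points, became 0.143 in thinned cells with or without the block, 0.627 over all kept cells, and −3.59 to −1.79 on leaving out a library. Reversals were looked for only in genes with the largest called changes per comparison without overlap, and in a few others. Genes chosen for large changes are unlikely to reverse, and genotype genes named from the lists, such as Ccnd2 and En1, were not followed. No change reversed in the alternative runs where a gene could be tested, while 66 values lost and 100 gained a call. The causes were not tested. Barx2-positive sums rest on 74 to 184 cells per library at E18.5 and on 22 to 110 in the E14.5 contrast, which limits the precision of genes with few UMIs.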
